A study of Mus musculus with 3 samples.

Results

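The genes described are 31 mouse liver genes of cholesterol synthesis, sensing and export, chosen by their symbols from a deposited table of 35275 genes, and all 31 were found there. They comprise 19 enzymes of the pathway from acetyl-CoA to cholesterol, 4 genes of the sterol sensor, 3 of sterol transport and esterification, and 5 that are targets of LXR, the oxysterol-activated nuclear receptor, or act in sterol export. The values come from bulk RNA sequencing of liver from male mice (C57BL/6J per the treatment protocol), with 1 library in each of 3 groups, which leaves no estimate of spread between animals. All mice were 10 weeks old at the start of the feeding. The control library is from untreated animals on normal chow. The NASH library (nonalcoholic steatohepatitis) is from untreated animals given a western diet together with liquid fructose, labelled 24 weeks. The TH-treated NASH library is from animals that spent 16 weeks on that diet before T3 (35 ng/g) and T4 (7 ng/g), the thyroid hormones, were added to drinking water containing 15% fructose for 8 weeks. The sources used here do not say whether a library holds 1 animal or a pool, or how old the control animals were at collection.

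Cholesterol is built from acetyl-CoA through mevalonate, the isoprenoid diphosphates, squalene and lanosterol. When sterol in the endoplasmic reticulum is scarce, SCAP escorts the precursor of the transcription factor SREBP2 (gene Srebf2) to the Golgi for cleavage, and the released factor turns on the genes of the pathway. When sterol is plentiful, INSIG proteins hold SCAP back. Surplus sterol is in addition esterified, used for bile acids, or exported, and oxysterols switch on export genes through LXR. Thyroid hormone is known to lower blood cholesterol and to act on hepatic cholesterol metabolism.

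The libraries held 38303410 to 54576236 fragments on genes. Levels are FPKM, fragments scaled to gene length and library depth, and sets of 3 levels are in the order control, NASH, TH-treated NASH. Every member stood at 1 FPKM or more in all 3 libraries and rested on 279 to 25465 fragments. Folds are quotients of FPKM, and the range after each is an exact 95% interval from the fragments, which holds for counting error alone and not for differences between animals. A gene counts as higher or lower once its log2 ratio of FPKM + 1 reaches 1.5-fold, and no test between groups was possible with 1 library in each. The thyroid hormone target Dio1, the deiodinase that activates T4, stood at 90.3, 129 and 429.7 FPKM, highest in the library labelled as treated. Of the 5 thyroid hormone response genes listed, 2 were higher there than in NASH and none lower, beside 8.49% and 9.03% of all genes. Those short of the mark were Thrsp at 191, 390 and 485 FPKM, Me1 at 84.4, 94.6 and 113, and Thrb at 6.43, 6.69 and 4.64. Hepatocyte markers were abundant throughout, led by Alb at 14907 to 32685 FPKM, while the gut markers Lct, Muc2, Vil1 and Cdx2 lay at 0 to 0.147 FPKM. Fabp2, fixed here as a gut marker, is also made by liver and stood at 57.9 to 220.5 FPKM.

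NASH was set against control to ask what differs between livers of diet-fed and chow-fed mice. The enzymes of synthesis were lower along most of the pathway, and the sterol exporter genes Abcg5 and Abcg8 were higher. Of the 31 members, 17 were lower and 4 higher, and their median log2 ratio was −0.90. Of all genes, 11499 reached 1 FPKM in at least 1 of these libraries; 2.57% of them were lower and 10.5% higher, with a median of 0.12. After TMM (trimmed mean) scaling, which shifts the median of all genes by −0.19, those shares were 4.67% and 6.90% and the split of members was 22 lower and 3 higher; centring by gene length gave 3.74% and 7.39%, and 20 and 3 members. Of the 19 enzymes, 15 were lower and none was higher. Past 2-fold were 14 lower members, all of them enzymes, and 2 higher ones, against 0.774% and 3.33% of all genes.

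**Figure D1:**
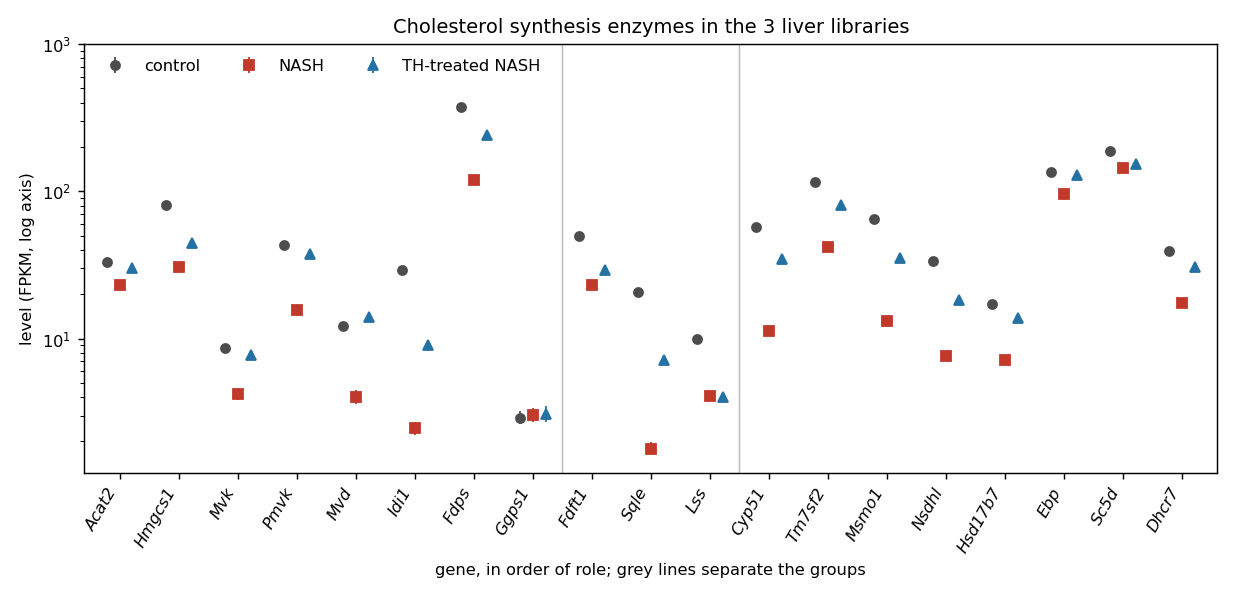
Levels (FPKM, log axis) of the 19 enzymes in pathway order for the 3 libraries, 1 point per library with its 95% counting interval. The NASH point is the lowest except for Lss, where it lies beside the TH-treated point, and Ggps1, whose 3 points lie together near 3 FPKM.

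In the mevalonate section, Acat2, the cytosolic thiolase that opens the pathway, stood at 33.3, 23.1 and 30.03 FPKM. Its close relative Acat3, which may share reads with it, stood at 111, 119 and 74.0 FPKM. Hmgcs1, which condenses acetoacetyl-CoA with acetyl-CoA, stood at 80.9, 30.7 and 44.2 FPKM, lowest in NASH and 2.64-fold below control there (2.55 to 2.73). The kinase Mvk stood at 8.66, 4.19 and 7.77 FPKM and the kinase Pmvk at 43.3, 15.6 and 37.4 FPKM. For both kinases the treated library lay much nearer to control than to NASH. Mvd, the decarboxylase that yields isopentenyl diphosphate, stood at 12.1, 4.02 and 14.1 FPKM, so that it was at 33.3% of control in NASH (29.4 to 37.7) and highest in the treated library.

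Idi1, the isomerase that turns isopentenyl diphosphate into its reactive partner, stood at 29.2, 2.46 and 9.07 FPKM. NASH thus held 8.42% of the control level (7.53 to 9.39), and Idi1 had the 4th lowest log2 ratio of all 11499 genes. Fdps, which makes farnesyl diphosphate and carried 28.5% of the summed enzyme level in control, stood at 376, 118 and 243 FPKM. It was 3.17-fold lower in NASH (3.09 to 3.26). Ggps1 makes the geranylgeranyl diphosphate used to anchor proteins in membranes and lies on a branch away from sterols. At 2.90, 3.05 and 3.08 FPKM, its 3 levels differed by less than their counting intervals.

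At the step to squalene, the squalene synthase Fdft1 stood at 50.04, 23.2 and 29.3 FPKM. Fdft1 overlaps Ctsb on the opposite strand by 767 bases in the deposited table, and Ctsb stood at 113, 176 and 149 FPKM. The strand setting of the counting is not stated. Sqle, the squalene epoxidase and a control point of the pathway, stood at 20.7, 1.79 and 7.10 FPKM. Its NASH level was 8.64% of control (7.76 to 9.59), the 5th lowest log2 ratio of all genes. Lss, which closes squalene epoxide into lanosterol, stood at 9.997, 4.05 and 4.02 FPKM, 2.47-fold lower in NASH (2.32 to 2.63) and equally low in the treated library.

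Between lanosterol and cholesterol, the demethylase Cyp51 stood at 57.02, 11.3 and 34.6 FPKM. The methylsterol oxidase Msmo1 stood at 64.7, 13.1 and 35.1 FPKM and the dehydrogenase Nsdhl, which acts in the same demethylation, at 33.7, 7.58 and 18.3 FPKM. In NASH Cyp51, Msmo1 and Nsdhl held 19.8%, 20.3% and 22.5% of control and ranked 6th, 7th and 11th lowest of all genes. The sterol reductase Tm7sf2 stood at 115.9, 41.96 and 80.6 FPKM. The ketosterol reductase Hsd17b7 stood at 17.2, 7.14 and 13.8 FPKM, and the terminal reductase Dhcr7 at 39.5, 17.5 and 30.5 FPKM. These reductases were 2.26-fold to 2.76-fold lower in NASH.

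The isomerase Ebp, at 135, 96.2 and 129 FPKM, and the desaturase Sc5d, at 187, 144 and 153 FPKM, were 1.40-fold (1.36 to 1.44) and 1.30-fold (1.27 to 1.33) lower in NASH, short of the 1.5-fold mark. With Acat2, at 1.44-fold lower, they counted as lower after TMM scaling. Summed over the 19 enzymes, the level was 1317, 569 and 923 FPKM. The sums for NASH were 34.4% of control for the mevalonate and isoprenoid genes, 35.9% from squalene to lanosterol and 52.1% after lanosterol. Without Fdps the enzyme sum in NASH was 47.9% of control, against 43.2% with it.

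Ordered by the NASH level as a share of control, the enzymes ran from Idi1 and Sqle below 10%, through Cyp51, Msmo1 and Nsdhl, to Acat2, Ebp and Sc5d between 69.2% and 76.9%, with Ggps1 at 105%. As deposited, Cyp51 (ENSMUSG00000001467) lies on chromosome 5 from 4081145 to 4104746, Msmo1 (ENSMUSG00000031604) on chromosome 8 from 64718139 to 64733792, and Hmgcs1 (ENSMUSG00000093930) on chromosome 13 from 119690462 to 119708086. The sources used here do not name the build of these positions.

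**Figure D2:**
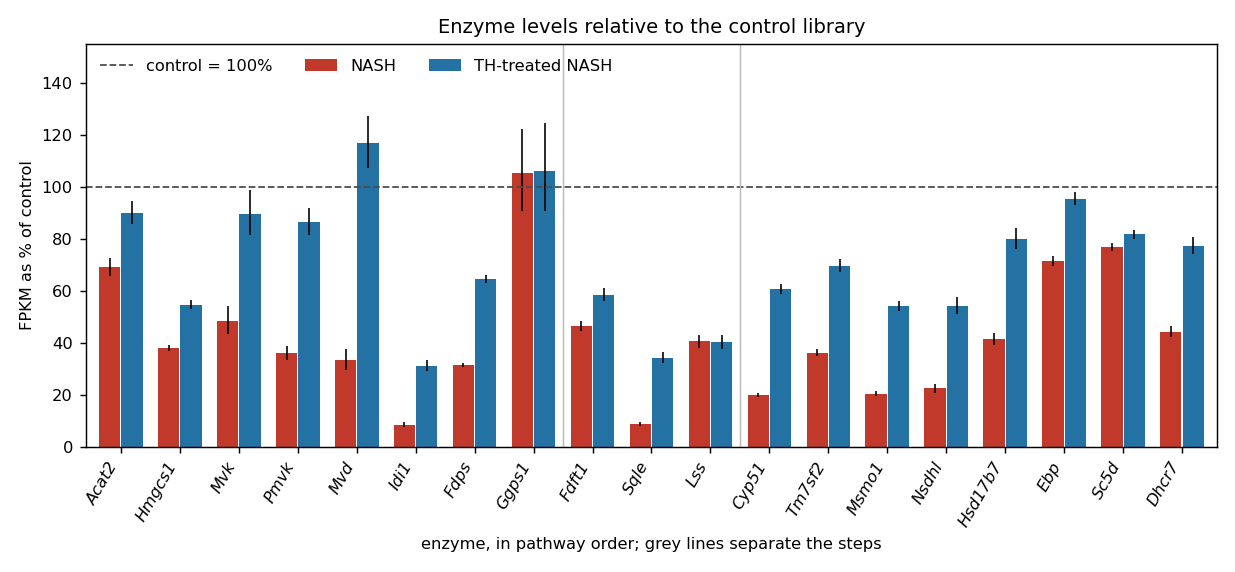
FPKM of each enzyme in NASH (red) and TH-treated NASH (blue) as a percentage of the control library (dashed line at 100%), with 95% counting intervals, in pathway order. Idi1 and Sqle are the lowest bars in NASH at 8.42% and 8.64%; Mvd stands at 117% in the treated library, and the bars of Lss are level at 40.5% and 40.2%.

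Because most enzymes were lower together, their promoter letters are shown for a few members. RefSeq promoter windows (GRCm38.p6), 250 bases before to 50 after a start site, were matched by symbol for 25 of the 31 members, in 32 windows; Fdps, Fdft1, Sqle, Stard4, Npc1 and Soat2 had none. A core of the sterol regulatory element, the SREBP binding sequence, was searched as TCACNCCA, and the CCAAT box, bound by NF-Y, as CCAAT, both on both strands. The letters TCACNCCA were found in the windows of Hmgcs1, Msmo1 and Srebf2, 3 of the 32, and in 4.36% of all 32851 windows. CCAAT was found in 22 of the 32 windows and in 37.4% of all windows; for the 16 matched enzymes it was in 15 of 19 windows. A match in these letters is not a bound site, and SREBP sites that differ from these letters or lie outside the windows are not counted. The 250 bases before the start are printed 5′ to 3′ for the 3 genes with TCACNCCA and for Idi1, the member with the lowest ratio in NASH. Capitals mark both motifs; on the opposite strand CCAAT reads ATTGG.
Hmgcs1 (chr13:119690101-119690350, plus strand): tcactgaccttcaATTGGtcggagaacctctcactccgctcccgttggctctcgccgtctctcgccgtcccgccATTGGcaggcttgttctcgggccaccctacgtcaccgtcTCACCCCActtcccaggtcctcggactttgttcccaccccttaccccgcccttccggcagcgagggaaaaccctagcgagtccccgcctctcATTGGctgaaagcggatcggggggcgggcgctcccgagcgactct
Msmo1 (chr8:64733579-64733828, minus strand): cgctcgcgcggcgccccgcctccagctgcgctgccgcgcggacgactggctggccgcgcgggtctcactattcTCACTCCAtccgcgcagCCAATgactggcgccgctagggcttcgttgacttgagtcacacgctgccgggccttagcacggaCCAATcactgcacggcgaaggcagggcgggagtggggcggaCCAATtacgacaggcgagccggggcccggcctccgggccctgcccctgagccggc
Srebf2 (chr15:82147019-82147268, plus strand): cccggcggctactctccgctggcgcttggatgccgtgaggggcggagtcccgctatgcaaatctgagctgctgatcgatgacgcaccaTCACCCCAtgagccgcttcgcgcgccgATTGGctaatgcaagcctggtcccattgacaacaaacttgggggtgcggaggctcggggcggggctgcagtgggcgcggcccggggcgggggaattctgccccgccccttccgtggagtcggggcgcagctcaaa
Idi1 (chr13:8885356-8885605, plus strand): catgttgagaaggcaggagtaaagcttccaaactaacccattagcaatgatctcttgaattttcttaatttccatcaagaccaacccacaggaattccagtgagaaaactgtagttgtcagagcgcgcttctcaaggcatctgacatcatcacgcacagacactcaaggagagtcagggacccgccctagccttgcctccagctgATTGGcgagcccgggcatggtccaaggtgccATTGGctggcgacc
Counted from the first base printed, the TCACNCCA match lies at bases 114 to 121 in Hmgcs1, 74 to 81 in Msmo1 and 89 to 96 in Srebf2, each followed downstream by at least 1 CCAAT box. Idi1 carries CCAAT at bases 206 to 210 and 237 to 241 and no TCACNCCA match. Srebf2 shares both motifs with Hmgcs1 and Msmo1, but its level differed less between the libraries than theirs.

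Among the genes of the sensor, Srebf2 stood at 12.03, 8.58 and 9.27 FPKM, 1.40-fold lower in NASH (1.33 to 1.48). Scap stood at 34.9, 25.1 and 33.9 FPKM, lower in NASH and, as deposited, level with control in the treated library. Both were short of 1.5-fold as deposited and past it after TMM scaling (log2 ratios −0.64 and −0.67). Insig1, itself a sterol-responsive SREBP target, stood at 110.5, 59.4 and 54.6 FPKM and was 1.86-fold lower in NASH (1.81 to 1.91). Insig2, its relative, is regulated differently in liver, with insulin lowering one of its transcripts. Insig2 stood at 46.6, 92.4 and 106 FPKM, 1.98-fold higher in NASH (1.92 to 2.04). Per length, Insig1 therefore exceeded Insig2 in control at a ratio of 2.37 and lay below it at 0.643 in NASH and 0.514 in the treated library. The deposited lengths of both genes are 2697 bases. Insig1 (ENSMUSG00000045294) lies on chromosome 5 from 28071363 to 28078662 and Insig2 (ENSMUSG00000003721) on chromosome 1 from 121304353 to 121332589, as deposited.

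Stard4, a cytosolic sterol carrier that responds to SREBP2, stood at 35.2, 17.8 and 15.8 FPKM. It was 1.97-fold lower in NASH (1.90 to 2.05) and, like Insig1, lowest in the treated library. Npc1, which passes cholesterol out of lysosomes, stood at 27.3, 27.04 and 22.1 FPKM, with NASH and control apart by less than the counting interval. Soat2, which esterifies cholesterol in hepatocytes, stood at 23.8, 20.04 and 17.04 FPKM and was within 1.5-fold in each comparison as deposited.

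In the group of LXR targets and export, 3 of 5 genes were higher in NASH and none lower, against 10.5% and 2.57% of all genes. Abcg5 and Abcg8 encode the partners of a transporter that secretes sterol into bile. Abcg5 stood at 27.8, 81.3 and 79.3 FPKM, 2.92-fold higher in NASH (2.81 to 3.04). Abcg8 stood at 22.5, 47.1 and 40.2 FPKM, 2.09-fold higher in NASH (2.02 to 2.17). For both, the NASH and treated libraries lay together above control. The ratio of Abcg5 to Abcg8 was 1.24, 1.73 and 1.97 in the same order. In the deposited table the genes overlap by 6710 bases on opposite strands of chromosome 17, Abcg5 (ENSMUSG00000040505) from 84658234 to 84683011 and Abcg8 (ENSMUSG00000024254) from 84676302 to 84700333. With the strand setting not given, reads in the overlap cannot be assigned with certainty.

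In RefSeq (GRCm38.p6) a start of Abcg8 at 84683121 faces away from the start of Abcg5 at 84683011, and Abcg8 has a further window inside Abcg5. The 109 bases between these divergent starts are shown because genes that were higher together share them. No TCACNCCA or CCAAT match lies within these 109 bases. A CCAAT box directly precedes the printed stretch, at bases 137 to 141 of the window of this Abcg8 start. Another lies at bases 76 to 80 of that window.
Abcg5-Abcg8 (chr17:84683012-84683120, plus strand): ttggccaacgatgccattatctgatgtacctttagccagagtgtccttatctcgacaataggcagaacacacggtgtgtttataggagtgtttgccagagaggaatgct

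Abca1, which loads cholesterol onto apolipoprotein A-I, stood at 14.9, 19.7 and 14.8 FPKM. Lpcat3, which remodels phospholipids under LXR control, stood at 47.5, 64.7 and 46.03 FPKM. Both were highest in NASH, 1.32-fold (1.29 to 1.36) and 1.36-fold (1.32 to 1.41) above control. In the treated library both were level with control as deposited, and at log2 ratios of −0.18 and −0.23 after TMM scaling. Mylip encodes a ubiquitin ligase that LXR induces and that removes lipoprotein receptors. It stood at 2.88, 4.84 and 4.44 FPKM, 1.68-fold higher in NASH (1.49 to 1.89), just past the mark with a log2 ratio of 0.59 and short of it after TMM scaling at 0.42. All 5 genes of this group had a positive log2 ratio in NASH against control, where the median of all genes was also positive at 0.12.

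**Figure D3:**
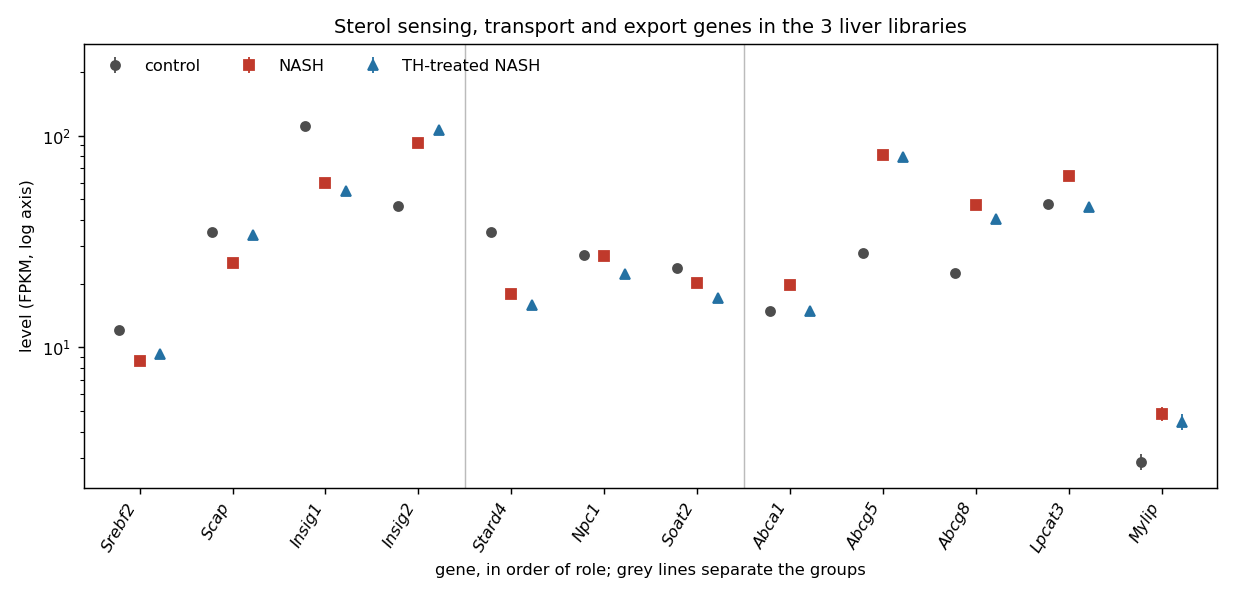
Levels (FPKM, log axis) of the 12 genes of sterol sensing, transport and export in the 3 libraries, with 95% counting intervals. Insig1 and Stard4 are highest in control, Insig2, Abcg5, Abcg8 and Mylip are lowest there, and Abca1 and Lpcat3 are highest in NASH.

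Markers of other cells differed between the same libraries. Among all genes, 10.5% were higher and 2.57% lower in NASH than in control. Against NASH, the shares in the treated library were 8.49% and 9.03%. Summed macrophage markers were 87.4, 252 and 456 FPKM, and all 8 were higher in NASH than in control. Against NASH, 3 of them were higher in the treated library and 1 lower, and their median was 0.14 (log2); Cd5l, Clec4f and Marco carried the larger sum, and Gpnmb stood at 5.19 FPKM in NASH and 0.124 in the treated library. Summed stellate cell and fibroblast markers were 69.7, 142 and 98.9 FPKM, with 6 of 6 higher in NASH. The 8 hepatocyte markers summed to 53602, 35441 and 34590 FPKM, and 5 of them were lower in NASH with a list median of −0.67, nearer to 0 than the enzymes' median of −1.37. Against NASH, 3 hepatocyte markers were higher in the treated library and 1 lower, with a list median of 0.45 beside the enzymes' 0.86. Tat stood at 264 FPKM in NASH and 894 in the treated library, and Ttr, the lower one, at 4219 and 2743 FPKM. Alb, at 20265 and 14907 FPKM, fell short of the 1.5-fold mark in this comparison. The blood marker sum was 302, 378 and 1663 FPKM, most of it globin, while Alas2 of the same list stood at 60.5, 44.3 and 22.8 FPKM. None of these lists had a marker at 0. In bulk liver, fewer cells of a type and less RNA per cell cannot be told apart, and the part of cell composition in the members' differences was not tested.

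TH-treated NASH was then set against NASH to ask what differs between livers of treated and untreated diet-fed mice. Most enzymes were higher in the treated library, and none of the sensing, transport and export genes passed the mark. Of the 31 members 12 were higher and none lower, against 8.49% higher and 9.03% lower among 11734 genes, and their median log2 ratio was 0.37, against −0.03. All 12 were enzymes. Past 2-fold were 8 members, all higher, against 2.73% of all genes higher and 2.77% lower. After rescaling to an equal FPKM sum, Lpcat3 also counted as lower, at a log2 ratio of −0.59, and 6.50% of all genes were higher and 12.1% lower.

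Sqle was 3.96-fold higher than in NASH (3.53 to 4.46), Idi1 3.69-fold (3.27 to 4.18), Mvd 3.50-fold (3.09 to 3.98) and Cyp51 3.06-fold (2.91 to 3.22). Msmo1, Nsdhl, Pmvk and Fdps were 2.05-fold to 2.67-fold higher, and Hsd17b7, Tm7sf2, Mvk and Dhcr7 1.75-fold to 1.93-fold. These 12 come from every section of the pathway: 5 of 8 in the mevalonate and isoprenoid section, 1 of 3 between squalene and lanosterol, and 6 of 8 after lanosterol.

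The remaining enzymes lay closer to NASH. Hmgcs1 was 1.44-fold higher, Fdft1 1.26-fold (1.20 to 1.33), Acat2 1.30-fold and Ebp 1.34-fold. Lss, at a ratio of 0.994 (0.916 to 1.08), and Ggps1, at 1.01 (0.859 to 1.19), did not differ beyond counting error. Lss overlaps an antisense gene, 4930483K19Rik, that stood at 0.241 to 0.548 FPKM. Among the other SREBP-responsive members, Insig1 stood at 0.919 (0.887 to 0.951) and Stard4 at 0.885 (0.845 to 0.928) of the NASH level, so neither was higher, unlike Sqle and Idi1. Scap was 1.35-fold higher (1.30 to 1.40) and Srebf2 1.08-fold (1.01 to 1.15).

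All 5 genes of LXR response and export had a ratio below 1 against NASH. The ratios ran from 0.711 for Lpcat3 (0.685 to 0.739) and 0.752 for Abca1 (0.728 to 0.777) to 0.975 for Abcg5 (0.945 to 1.01). The intervals of Abcg5 and of Mylip, at 0.919 (0.819 to 1.03), include 1. The median log2 ratio of the 5 genes was −0.22, against 0.86 for the enzymes and −0.03 for all genes. None of the 5 reached 1.5-fold as deposited. Whether enzymes and export genes responded differently was not tested, since each library is single.

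**Figure D4:**
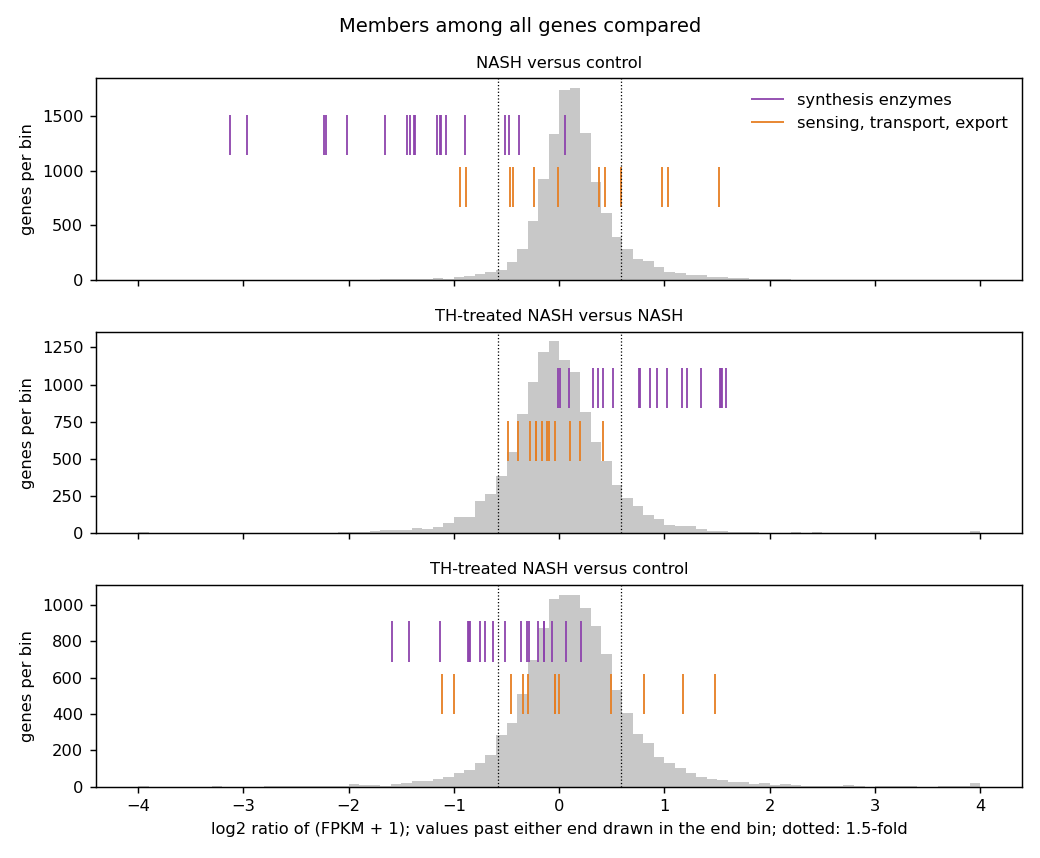
Histograms of the log2 ratio of (FPKM + 1) for all genes that reach 1 FPKM in a compared library, 1 panel per comparison, with ticks for the 19 enzymes (purple) and the other 12 members (orange). The enzyme ticks lie left of most genes in NASH versus control (median −1.37), right of most in TH-treated NASH versus NASH (median 0.86) and nearer the middle in TH-treated NASH versus control (median −0.52).

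The comparison of TH-treated NASH with control, which shares a library with each of the others, asked how far the treated liver lay from the chow-fed liver. Of the 31 members 11 were lower and 3 higher, with a median log2 ratio of −0.30. Among 11474 genes 6.98% were lower and 15.8% higher, with a median of 0.12. After TMM scaling, which shifts the median of all genes by −0.17, the shares were 11.3% and 10.8%, and 13 members were lower and 3 higher; centring by gene length gave 10.1% and 10.4%, and 13 and 3 members. Past 2-fold were 5 lower and 2 higher members, against 2.42% and 5.57% of all genes. The summed enzyme level was 70.1% of control.

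Members differed in how near to control they lay. Mvd stood at 117% of control (107 to 127), Ebp at 95.5% (92.9 to 98.1), Scap at 97.02% (93.7 to 100.4) and Abca1 at 99.6% (96.3 to 103). The log2 ratios of these genes were 0.21, −0.07, −0.04 and −0.01 as deposited, and 0.03, −0.25, −0.23 and −0.18 after TMM scaling. Their nearness to control thus depends on the scaling. Acat2, Mvk and Pmvk were at 86.4% to 90.1% of control. Still lower than control by the 1.5-fold mark were 9 enzymes: Idi1 at 31.1%, Sqle at 34.2%, Lss at 40.2%, and Hmgcs1, Fdps, Fdft1, Cyp51, Msmo1 and Nsdhl at 54.2% to 64.5%. Idi1 and Sqle, which had the widest folds among the enzymes in the other comparisons, were also the furthest below control here.

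Insig1 stood at 49.4% of control (48.0 to 51.0) and Stard4 at 44.9% (43.1 to 46.7). The 3 higher members were Abcg5 at 2.85-fold (2.74 to 2.97), Insig2 at 2.28-fold (2.21 to 2.35) and Abcg8 at 1.78-fold (1.71 to 1.86). Insig1, Stard4, Insig2, Abcg5 and Abcg8 thus lay nearer to NASH than to control in the treated library, as did some enzymes, Lss among them.

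Further genes of the pathway were described from lists that hold no member. In NASH against control the median log2 ratios were 0.17 for isoprenoid branches, 0.15 for SREBP processing, −0.19 for other sterol-responsive genes and 0.12 for LXR receptors and further targets, against −1.37 for the 19 enzymes. Against NASH, the same lists in the treated library had medians of −0.12, −0.33, 0.42 and 0.19, against 0.86 for the enzymes. Among other synthesis enzymes, Acat1, the mitochondrial thiolase, stood at 103, 135 and 76.5 FPKM and was 1.76-fold lower in the treated library than in NASH (1.72 to 1.80). Acat3 was 1.61-fold lower there, and neither passed the mark in NASH against control. Of 11 genes of the isoprenoid branches, which lead to ubiquinone, dolichol and prenylated proteins, 1 was higher in NASH and none lower, a share of 9.09% higher against 10.5% of all genes. It was the ubiquinone gene Coq2, at 1.56-fold and a log2 ratio of 0.61, just past the mark. In the treated library none of the 11 differed from NASH by the mark. The mark is taken on FPKM + 1, which shrinks the fold of low genes. Fntb, at 1.23, 2.07 and 2.12 FPKM, was 1.68-fold higher in NASH than in control (1.38 to 2.04) without passing it. Pggt1b, at 1.83, 2.27 and 1.27 FPKM, stood at 0.559 of its NASH level in the treated library (0.452 to 0.689), also uncalled.

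Of 9 genes of SREBP processing and sterol-regulated degradation, Srebf1 alone passed the mark in NASH against control. Srebf1, whose main liver product drives fatty acid synthesis and is an LXR and insulin target, stood at 55.5, 125 and 38.4 FPKM, a course opposite to that of the cholesterol enzymes. It was 3.26-fold lower in the treated library than in NASH (3.17 to 3.35). The proteases that release SREBP, Mbtps1 and Mbtps2, were within 1.5-fold in each comparison. Among 7 other sterol-responsive genes, where 10.5% of all genes were higher and 2.57% lower, 1 was lower in NASH, Rdh11, a retinol dehydrogenase, at 22.1, 7.76 and 15.7 FPKM, and 1 higher, the acetoacetyl-CoA synthetase Aacs. Aacs, at 18.6, 30.2 and 10.5 FPKM, was highest in NASH and lowest in the treated library, as Srebf1 was. Against NASH, where 8.49% of all genes were higher and 9.03% lower, 3 of the 7 were higher in the treated library, Rdh11 at 2.02-fold, the cytochrome P450 reductase Por at 1.60-fold and the acetyl-CoA synthetase Acss2 at 1.57-fold, and Aacs was lower.

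Of 7 LXR receptors, partners and further targets, none of the receptor genes Nr1h2, Nr1h3, Rxra and Rxrb differed by the mark in any comparison. The sterol transporter Abcg1, which macrophages also make, stood at 1.07, 4.19 and 3.07 FPKM, 3.93-fold higher in NASH (3.37 to 4.61). The desaturase Scd1 stood at 1786, 6747 and 2514 FPKM. Pltp, the remaining target listed, went the other way in NASH, at 56.5, 43.0 and 39.8 FPKM, short of the mark in each comparison. In the treated library Scd1 stood at 0.373 of its NASH level and Abcg1 at 0.732 (0.647 to 0.827).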

How the data were processed

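Polyadenylated RNA from liver was sequenced in 3 libraries, 1 per group. The deposited table gives FPKM per gene made by the authors, 1 column per library, with gene length in bases among its other columns. TopHat2 and HTSeq are named, per the submitters' processing notes, without versions; the sources used here do not give settings, strand mode or genome build.

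FPKM multiplied by length came in whole multiples of 1 step per library. Dividing by it gave fragments, with 100% of values above 0 whole within 0.01 fragment and totals of 54576236 (control), 47009255 (NASH) and 38303410 (TH-treated NASH). From these came exact 95% intervals, Poisson for levels and conditional binomial for ratios; they cover counting error only. Log2 ratios used a pseudocount of 1 FPKM and understate the fold of low genes. All-gene counts used genes reaching 1 FPKM in at least 1 library compared. With 1 library per group no p-value was computed. The steps were tested on simulated data.

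Members and gene lists were chosen with earlier results of these data known, as were the genes to name: all members, and list genes past 1.5-fold, up to 4 per list. Receptor and protease genes, Pltp and Cyp7a1 were named after their values were seen. One listed symbol, Adgre1, was matched by gene ID. Endothelial (5 genes, sums 23.6, 30.2 and 30.8 FPKM) and cholangiocyte markers (5 genes, sums 3.32, 4.88 and 2.30 FPKM) were also summed, in the order control, NASH, TH-treated NASH. Alternatives were other pseudocounts (0.1 and 5 FPKM), scalings, filters and thresholds; centring by gene length and leaving out overlapping genes were added after seeing the data. Software was Python 3.11.15, pandas 2.3.3 and scipy 1.17.1.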

Additional observations from a re-analysis of the deposited data

How the results depend on the processing

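No called member changed direction in any comparison under any setting run. Of the members called, 20 of 21, 12 of 12 and 14 of 14 kept the call under all scalings and centring by gene length, in the order NASH versus control, TH-treated NASH versus NASH, TH-treated NASH versus control; the exception was Mylip. Uncalled members that changed sign under some setting were Ggps1 and Npc1 in the first, Abcg5, Ggps1, Lss and Sc5d in the second, and Abca1 and Ggps1 in the third. In the same order the members' median log2 ratio, reported as −0.90, 0.37 and −0.30, was −0.98, 0.38 and −0.32 with a pseudocount of 0.1 FPKM and −0.73, 0.32 and −0.26 with 5 FPKM. Scaling by the median of ratios gave −1.10, 0.40 and −0.47 and TMM −1.10, 0.39 and −0.48. It was −0.92, 0.32 and −0.37 without the 50 most abundant genes, and −0.88, 0.26 and −0.39 at an equal FPKM sum. Among members of at least 5 FPKM it was −0.94, 0.41 and −0.34. Centring by gene length gave −1.03, 0.40 and −0.42, and leaving out the 7 members that overlap another expressed gene −1.03, 0.47 and −0.35. At 2-fold, 2 members were higher in NASH than in control and 5 lower in TH-treated NASH than in control. Without overlapping members, whose Abcg5 and Abcg8 are then missing, 2 were higher in NASH than in control and 1 higher in TH-treated NASH than in control. At an equal FPKM sum 1 member was lower in TH-treated NASH than in NASH. Depth limits Ggps1, Mvd, Idi1 and Sqle most, with 279 to 376 fragments in the library where each has fewest. No paired analysis was possible because each group has 1 library.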

Other observations

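Beyond synthesis and export, genes of the routes that use cholesterol differed as well. Levels are again in the order control, NASH, TH-treated NASH. Cyp7b1, an oxysterol hydroxylase of the alternative route to bile acids, stood at 183, 62.2 and 200 FPKM, lowest in NASH like most enzymes of synthesis. Cyp39a1, another oxysterol hydroxylase, stood at 8.42, 6.45 and 39.1 FPKM, 6.07-fold higher in the treated library than in NASH (5.66 to 6.52). Cyp7a1, which opens the classic route to bile acids, was within 1.5-fold in each comparison at 44.9, 35.8 and 32.3 FPKM. Cyp8b1, the hydroxylase that leads to cholic acid, stood at 235, 161 and 102 FPKM.

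Of 15 genes of uptake, lysosomal release and storage at 1 FPKM or more in any library, 3 were higher in NASH than in control and none lower, against 10.5% and 2.57% of all genes. Their log2 ratios of FPKM + 1 were 0.61 to 0.71, near the 1.5-fold mark. They were Soat1, the sterol esterifying enzyme of macrophages, at 0.457, 1.29 and 1.45 FPKM, Gramd1b at 0.295, 1.12 and 0.589 FPKM, and Scarb1, the receptor for high-density lipoprotein, at 46.4, 71.2 and 51.1 FPKM. For the low genes Soat1 and Gramd1b that scale understates the fold. As quotients of FPKM, Soat1 was 2.81-fold higher (2.39 to 3.32) and Scarb1 1.53-fold (1.49 to 1.58). Soat1 lay above control in the same libraries in which the summed macrophage markers did; the part of macrophages in its level was not tested. Against NASH, 1 of the 15 was higher in the treated library and 1 lower, beside 8.49% and 9.03% of all genes. Gramd1c, a relative of Gramd1b among the proteins that move sterol from the plasma membrane, stood at 11.3, 10.1 and 25.4 FPKM. It was 2.50-fold higher in the treated library than in NASH (2.36 to 2.65). Osbp, the lower one, stood at 14.0, 13.7 and 7.91 FPKM, with a log2 ratio of −0.72 against NASH.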
